A study of Mus musculus with 21 samples.

Results

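Nodal and BMP pathway genes were followed in E14 mouse embryonic stem cells after rapid removal of 1 of 3 ribosome-associated proteins. The members are 10 genes, taken by their symbols: the ligands Nodal and Bmp4, the Nodal co-receptor Tdgf1, the inhibitors Lefty1, Lefty2, Smad7 and Skil, and the target genes Id1, Id2 and Id3. All 10 were present once in each table, among 12905 genes for the RACK1 line, 12353 for the RPLP0 line and 12274 for the RPLP1 line. E14 is an established mouse embryonic stem cell line. RPLP0 and RPLP1 belong to the stalk of the large ribosomal subunit, and RACK1 is a scaffold protein on the small subunit. In each line 1 ribosome-associated protein carries an auxin-inducible degron, and all 3 lines also carry the plant receptor Tir1 as RPS26-Tir1. The genotypes are RACK1-AID/RPS26-Tir1, RPLP0-AID/RPS26-Tir1 and RPLP1-AID/RPS26-Tir1. Cells received either the auxin IAA, through which Tir1 marks the tagged protein for degradation, or the solvent DMSO, for 8 h. Each line had 3 IAA and 3 DMSO mRNA samples, and 1 footprint sample in which the replicates of both treatments were combined. Since every line carries a degron, an effect of IAA itself and an effect of removal cannot be told apart. The labels do not say whether replicates are separate cultures or how many clones each line represents.

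Nodal is a secreted ligand of the TGF-beta family that signals through activin receptors together with the co-receptor Tdgf1 (Cripto), and its signal reaches the nucleus through SMAD2 and SMAD3. Lefty1 and Lefty2 are secreted inhibitors of Nodal that are themselves switched on by it, so they form a feedback loop that is active in cultured mouse embryonic stem cells. Bmp4 signals through SMAD1 and SMAD5 and switches on the Id genes, which encode inhibitors of basic helix-loop-helix transcription factors and help these cells to self-renew. Smad7 and Skil act inside the cell, Smad7 on the receptors and Skil, also known as SnoN, on SMAD complexes at their target genes.

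The deposited values are, for each gene and line, a log2 fold change of mRNA and one of ribosome footprints after removal, each with a false discovery rate (FDR), so no value per sample was used and read depth is unknown. A positive change was read as higher after IAA. Genes with the authors' FDR below 0.05 are called changed. The standard error (SE) given with a change was computed here from the change and its FDR, and the derivation of footprint FDRs from the combined sample was not given in the sources used here. RACK1 had the widest mRNA errors, with a median SE over all genes of 0.165 against 0.105 in RPLP0 and 0.115 in RPLP1. The pluripotency factors Pou5f1, Sox2 and Sall4 were present in all 3 tables with no member called in either assay. The tables hold no expression levels, so the defining markers of the cells could not be checked further.

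The inhibitors Lefty1 and Lefty2 fell in mRNA after removal of either stalk protein, and Nodal moved in opposite directions in these 2 lines. After RPLP0 removal 3 of 10 members were called in mRNA, Lefty1 and Lefty2 lower and Nodal higher, where 9.95% of all genes were called and 4.9% were called lower. After RPLP1 removal 4 of 10 were called, all lower, namely Lefty1, Lefty2, Nodal and Tdgf1, where 14.2% of all genes were called and 8.59% were called lower. After RACK1 removal none of the 10 passed the authors' FDR in mRNA, where 0.48% of all genes were called, and none had an unadjusted p below 0.05, where 10.8% of all genes did. The median mRNA change of the 10 members was -0.02 in RACK1, -0.11 in RPLP0 and -0.18 in RPLP1, beside medians over all genes of 0.00, 0.00 and -0.01. Within each line the IAA and DMSO samples are that line's own, so the 3 lines share no controls.

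**Figure D1:**
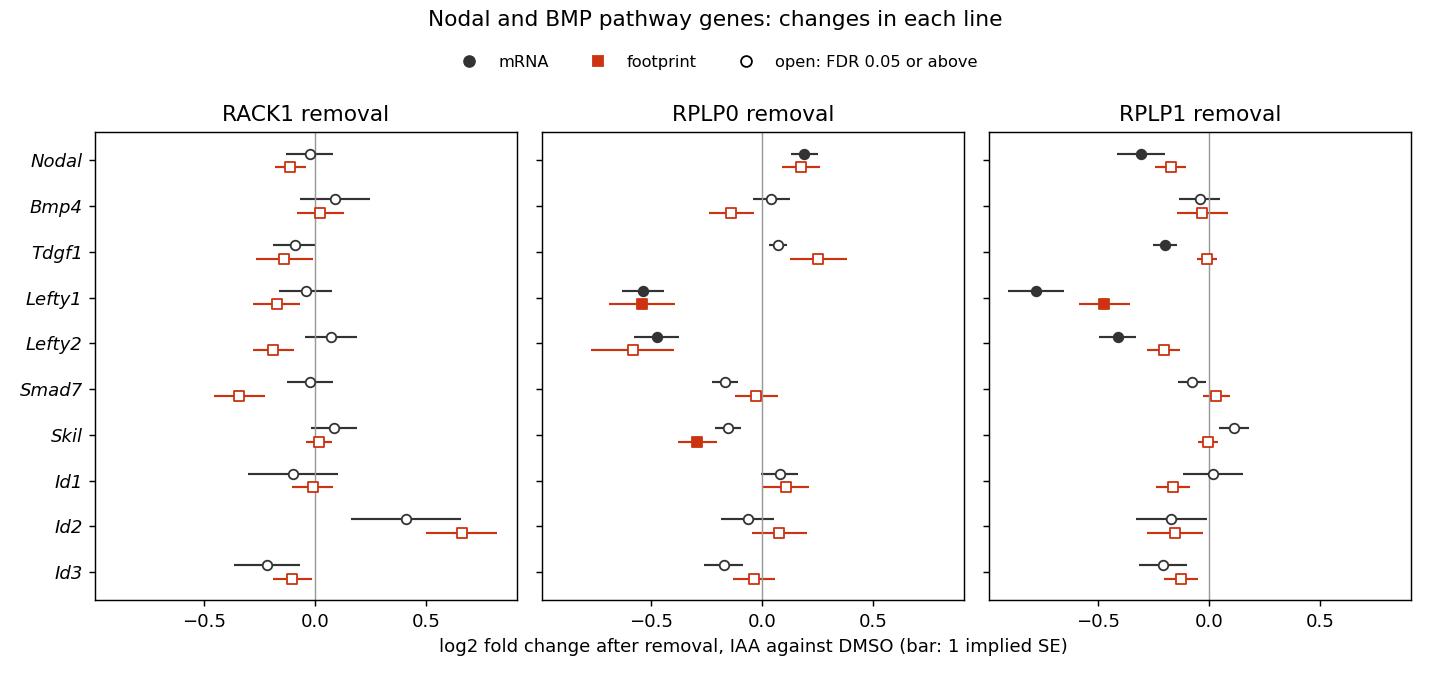
Log2 fold changes of the 10 members (x axis; IAA against DMSO) in the RACK1, RPLP0 and RPLP1 lines, circles for mRNA and squares for footprints, with bars of 1 implied SE and filled symbols where the authors' FDR was below 0.05. Lefty1 and Lefty2 mRNA lie at -0.54 and -0.47 in RPLP0 and at -0.78 and -0.41 in RPLP1, and Id2 footprints stand at 0.66 in RACK1 with an open symbol.

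Lefty1 had the largest mRNA change of the 10 in both stalk lines. In the authors' deposited table its mRNA log2 changes were -0.04 (FDR 0.931) in RACK1, -0.54 (FDR 2.8e-06) in RPLP0 and -0.78 (FDR 5.47e-06) in RPLP1. The implied SEs were 0.12, 0.09 and 0.13. On the linear scale the mRNA change was -31.0% in RPLP0 and -41.8% in RPLP1. Only 1.98% of genes had a lower mRNA change in RPLP1 and 3.27% in RPLP0, and in RPLP1 no gene had a smaller mRNA FDR, 1 other gene sharing it. Lefty1 footprints fell in the same 2 lines, at -0.54 (FDR 0.0234) in RPLP0 and -0.47 (FDR 0.00642) in RPLP1 in the authors' deposited table. In RACK1 they stood at -0.17 (FDR 0.675). Lefty1 was called in 4 of the 6 comparisons, the most of any member.

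Lefty2, its close paralog, fell in mRNA in the same 2 lines. The authors' deposited table gave mRNA changes of 0.07 (FDR 0.882) in RACK1, -0.47 (FDR 0.000179) in RPLP0 and -0.41 (FDR 0.000139) in RPLP1. Its footprints were lower by estimate in all 3 lines without passing the threshold: -0.19 (FDR 0.592) in RACK1, -0.58 (FDR 0.0581) in RPLP0 and -0.20 (FDR 0.0611) in RPLP1, per the authors' deposited table. In RPLP1 the 95% intervals of the mRNA change reach from -1.03 to -0.54 for Lefty1 and from -0.58 to -0.25 for Lefty2. Lefty1 and Lefty2 are similar in sequence and the counting of reads that match both was not given in the sources used here. The split between them is therefore uncertain.

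The mRNA changes of both Lefty genes differed from those in the RACK1 line. Differences between lines were tested gene by gene against the combined implied SEs, with Benjamini-Hochberg adjustment over all genes that 2 tables share; normal, independent errors are assumed, so the test is approximate. A difference is called where it passed an adjusted limit of 0.05, and its 95% interval is given without adjustment. The Lefty1 response in RPLP0 minus that in RACK1 was -0.49 (SE 0.15, 95% interval -0.79 to -0.19), and in RPLP1 minus RACK1 it was -0.74 (SE 0.17, 95% interval -1.08 to -0.40), both called. For Lefty2 the differences were -0.55 (SE 0.16, 95% interval -0.85 to -0.24) and -0.48 (SE 0.14, 95% interval -0.77 to -0.20), both called. These were 2 of 10 members in each pair, where 3.29% and 7.95% of all genes differed. No footprint difference from RACK1 passed for any member: 0.64% of genes passed for RPLP0 and 0.107% for RPLP1, with 6 and 2 members below an unadjusted p of 0.05, where 16.2% and 10.5% of all genes were. The 2 of 10 is not far from that background. Between RPLP1 and RPLP0 the mRNA difference was -0.24 for Lefty1 (95% interval -0.55 to 0.06) and 0.06 for Lefty2 (95% interval -0.20 to 0.32), neither past the threshold.

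Nodal, the ligand, rose in mRNA after RPLP0 removal and fell after RPLP1 removal. In the authors' deposited table its mRNA log2 changes were -0.02 (FDR 0.960) in RACK1, 0.19 (FDR 0.0301) in RPLP0 and -0.31 (FDR 0.0349) in RPLP1. Its footprints stood at -0.11 (FDR 0.688), 0.17 (FDR 0.228) and -0.17 (FDR 0.0963) in the authors' deposited table, with the same signs as its mRNA and none past the threshold. The difference between the 2 stalk lines itself passed in both assays, RPLP1 minus RPLP0 being -0.50 for mRNA (SE 0.12, 95% interval -0.74 to -0.25) and -0.35 for footprints (SE 0.11, 95% interval -0.57 to -0.13).

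Tdgf1, the co-receptor that Nodal needs, also differed between the stalk lines. Its mRNA log2 changes were -0.09 (FDR 0.785) in RACK1, 0.07 (FDR 0.284) in RPLP0 and -0.20 (FDR 0.00609) in RPLP1 in the authors' deposited table. It was therefore called in RPLP1 alone, where its mRNA fell by 12.9%, and RPLP1 minus RPLP0 was -0.27 (SE 0.07, 95% interval -0.41 to -0.14), a called difference. Tdgf1 footprints were at -0.14 (FDR 0.807), 0.25 (FDR 0.239) and -0.01 (FDR 0.921) in the authors' deposited table. RefSeq lists pseudogenes of Tdgf1, and the counting of reads shared with them was not given in the sources used here.

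The promoters of Nodal and Tdgf1 are shown because these are the 2 members of the ligand and co-receptor pair whose mRNA response differed between the stalk lines. Each is the 250 bases before the annotated start from RefSeq on build GRCm38.p6, 5' to 3' on the gene's strand, and capitals mark the SMAD core motif CAGAC on either strand. The Nodal window is chr10:61417722-61417971 on the plus strand and the Tdgf1 window is chr9:110946159-110946408 on the minus strand.
Nodal: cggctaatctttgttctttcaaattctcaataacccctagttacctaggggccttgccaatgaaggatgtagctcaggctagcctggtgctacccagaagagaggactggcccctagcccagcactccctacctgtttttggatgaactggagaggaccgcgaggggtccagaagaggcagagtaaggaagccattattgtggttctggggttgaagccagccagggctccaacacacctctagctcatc
Tdgf1: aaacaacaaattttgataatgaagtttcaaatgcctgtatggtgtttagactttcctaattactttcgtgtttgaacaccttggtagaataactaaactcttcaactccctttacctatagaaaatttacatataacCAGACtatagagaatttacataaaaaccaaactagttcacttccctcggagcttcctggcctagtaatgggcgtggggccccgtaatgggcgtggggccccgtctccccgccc
The Tdgf1 window holds 1 core, beginning 113 bases before the start, and the Nodal window holds 0. Among 32851 listed promoters 42.2% hold CAGAC in a window of this length, 9.59% hold the GC-rich SMAD element GGCGCC and 0.167% hold the palindrome GTCTAGAC. The last 2 motifs are in neither window. They were searched on both strands and do not overlap the core. Promoters of 5 of the 10 members were searched, and the other members had none listed or were left out of the search. Besides the 2 shown, Bmp4 held none of these motifs, Id2 held 1 GGCGCC and Id3 held 2 cores.

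In the comparison of the stalk lines 3 of 10 members differed in mRNA, where 12.2% of all genes did, and 1 of 10 in footprints, where 4.72% did. The third mRNA difference was Skil, the nuclear corepressor of SMAD complexes, with RPLP1 minus RPLP0 at 0.27 (SE 0.09, 95% interval 0.09 to 0.44). The authors' deposited table gave its mRNA at 0.08 (FDR 0.827) in RACK1, -0.15 (FDR 0.0801) in RPLP0 and 0.11 (FDR 0.265) in RPLP1, none of them called. Skil footprints fell in RPLP0, at -0.29 (FDR 0.0398), and stood at 0.02 (FDR 0.951) in RACK1 and -0.0046 (FDR 0.966) in RPLP1 in the authors' deposited table. The footprint difference of RPLP1 from RPLP0, 0.29 (SE 0.10, 95% interval 0.10 to 0.48), missed the adjusted limit.

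**Figure D2:**
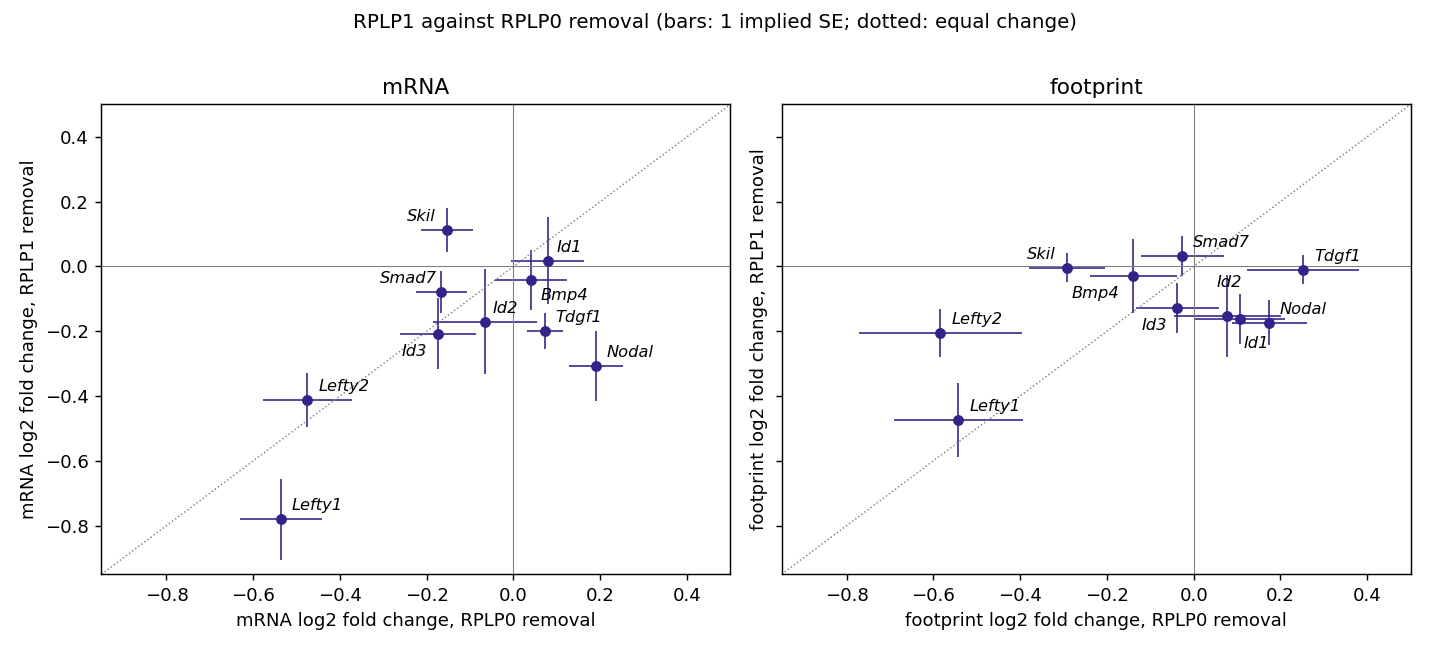
Log2 fold changes after RPLP1 removal (y axis) against RPLP0 removal (x axis) for the 10 members, mRNA on the left and footprints on the right, with bars of 1 implied SE and a dotted line of equal change. In mRNA, Nodal (0.19 and -0.31) and Tdgf1 (0.07 and -0.20) lie below the line and Skil (-0.15 and 0.11) above it, while both Lefty genes are below 0 on both axes.

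Smad7, an inhibitory SMAD that acts on the receptors, was not called in any line. Its mRNA was at -0.02 (FDR 0.959) in RACK1, -0.17 (FDR 0.0502) in RPLP0 and -0.08 (FDR 0.419) in RPLP1 in the authors' deposited table, the RPLP0 value lying just outside the threshold. Its footprints were at -0.34 (FDR 0.389), -0.03 (FDR 0.900) and 0.03 (FDR 0.779) in the authors' deposited table. Only 3.03% of genes had a lower footprint change in RACK1.

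Bmp4 and the 3 Id genes were not called in any line in mRNA or footprints. Bmp4 mRNA was at 0.09 (FDR 0.888) in RACK1, 0.04 (FDR 0.820) in RPLP0 and -0.04 (FDR 0.8005) in RPLP1 in the authors' deposited table. Its 95% intervals were -0.22 to 0.40, -0.12 to 0.20 and -0.22 to 0.14, so changes of these sizes cannot be told from no change. Bmp4 footprints were at 0.02 (FDR 0.966), -0.14 (FDR 0.419) and -0.03 (FDR 0.900) in the authors' deposited table.

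Id1, Id2 and Id3 encode inhibitors of basic helix-loop-helix factors. Id1 mRNA was at -0.10 (FDR 0.905), 0.08 (FDR 0.629) and 0.02 (FDR 0.950) in RACK1, RPLP0 and RPLP1 in the authors' deposited table. Id3 mRNA was below 0 in all 3, at -0.22 (FDR 0.626), -0.17 (FDR 0.204) and -0.21 (FDR 0.187) in the authors' deposited table, without a call. Id1 footprints were at -0.01 (FDR 0.982), 0.11 (FDR 0.572) and -0.16 (FDR 0.156), and Id3 footprints at -0.10 (FDR 0.777), -0.04 (FDR 0.850) and -0.13 (FDR 0.282), in the same order of lines in the authors' deposited table. For these 2 genes the mRNA intervals were widest in RACK1, from -0.50 to 0.30 for Id1 and from -0.51 to 0.08 for Id3.

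Id2 stood apart from the other members in the RACK1 line. Its footprints were at 0.66 (FDR 0.117) and its mRNA at 0.41 (FDR 0.569) in the authors' deposited table, both open in the plot of member changes. In footprints 99.5% of genes had a lower change, and by FDR it ranked 6 of 12905. In RPLP0 Id2 was at -0.07 (FDR 0.799) for mRNA and 0.08 (FDR 0.744) for footprints, and in RPLP1 at -0.17 (FDR 0.504) and -0.15 (FDR 0.460), in the authors' deposited table. The footprint difference of RPLP1 from RACK1 was -0.81 (SE 0.21, 95% interval -1.22 to -0.41), just outside the adjusted limit. RPLP0 minus RACK1 was -0.58 (SE 0.20, 95% interval -0.98 to -0.18) and was not called either.

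In footprints 0 of 10 members were called in RACK1, where 0.031% of all genes were; at an unadjusted p below 0.05 there were 3 members, Id2, Smad7 and Lefty2, where 8.29% of all genes passed that limit. In RPLP0 2 of 10 were called, Lefty1 and Skil, both lower, where 2.46% of all genes were called and 1.04% were called lower. In RPLP1 1 of 10 was called, Lefty1, lower, where 8.39% of all genes were called and 4.85% were called lower, so this count is near the background. The median footprint change of the members was -0.11 in RACK1, -0.03 in RPLP0 and -0.14 in RPLP1, beside -0.01, 0.00 and -0.01 over all genes. In RPLP1 9 of the 10 were below 0, Smad7 at 0.03 being the exception.

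Translation efficiency, the footprint change minus the mRNA change, was called for 0 of the 10 members in each line by an approximate normal test on the implied SEs with Benjamini-Hochberg adjustment. Over all genes 0.116% were called in RACK1, 0.0081% in RPLP0 and 0.0326% in RPLP1, so this test made few calls. At an unadjusted p below 0.05 there was 1 member in RACK1, Smad7 at -0.32 (SE 0.16), none in RPLP0, and 1 in RPLP1, Tdgf1 at 0.19 (SE 0.07). At that limit 7.94%, 6.61% and 7.37% of all genes passed in RACK1, RPLP0 and RPLP1, so these counts are near the background. Lefty1 was at -0.13 (SE 0.16) in RACK1, -0.01 (SE 0.18) in RPLP0 and 0.31 (SE 0.17) in RPLP1. In RPLP0 its mRNA and footprints thus moved by nearly equal amounts, while in RPLP1 the footprint change was the smaller by estimate and the difference did not pass.

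**Figure D3:**
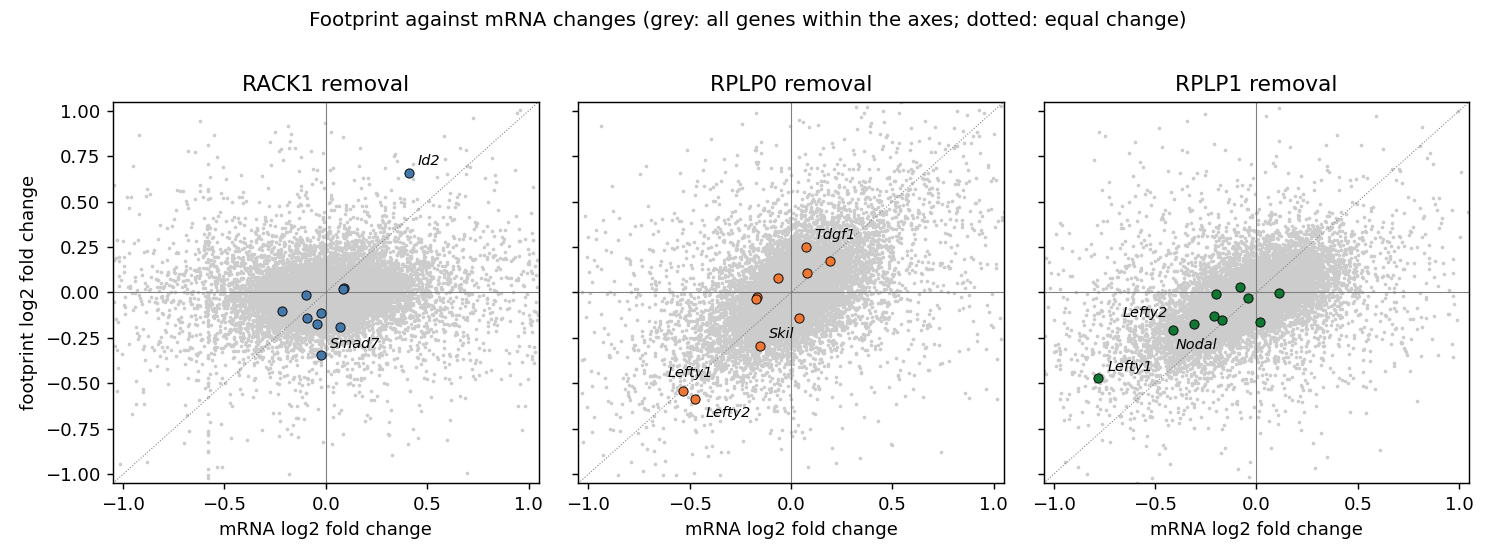
Footprint (y axis) against mRNA (x axis) log2 fold changes in each line, coloured points for the 10 members and grey points for all genes within the axes, with a dotted line of equal change. The Lefty genes lie at the lower left in RPLP0 and RPLP1, at footprint changes of -0.54 and -0.58 and of -0.47 and -0.20, and Id2 is the highest member in RACK1 at 0.66.

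The authors' own class codes use looser limits than 0.05. From the values, genes of the mRNA classes had FDRs up to 0.200, and genes of the footprint classes up to 0.341 in RACK1 and up to 0.0997 and 0.0999 in RPLP0 and RPLP1. By those codes the authors' deposited table put 1 member in a changed class in RACK1, Id2 as changed in footprints, a class of 0.527% of all genes. In RPLP0 3 members were classed as changed in both assays, Lefty1, Lefty2 and Skil, and 2 in mRNA, Nodal and Smad7, where these classes held 4.57% and 17.6% of all genes. In RPLP1 the 3 in both were Lefty1, Lefty2 and Nodal, and the 2 in mRNA were Tdgf1 and Id3, where the classes held 10.1% and 22.1% of all genes. In both lines the count in the mRNA class is near that share.

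The other genes of these pathways were taken from lists by role, 85 genes besides the members, of which 66 were in the RACK1 table and 64 in each of the others. In RPLP1 12 of 64 fell in mRNA and 1 rose, or 20.3% against the 14.2% of all genes, with a median of -0.14. In RPLP0 4 of 64 fell and 2 rose, or 9.38% against 9.95%, which is near the background. In RACK1 none of 66 was called in mRNA or footprints. By the authors' looser class codes Acvr1b and Inhbb were classed there as changed in both assays, a class of 13 of 12905 genes. In footprints 2 of 64 rose and none fell in RPLP0, and 1 rose and 2 fell in RPLP1. That is 3.13% against 2.46% of all genes in RPLP0 and 4.69% against 8.39% in RPLP1, near or below the background.

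Among the ligands Gdf3, which signals through the same co-receptor as Nodal, followed Nodal in sign across the stalk lines. The authors' deposited table gave Gdf3 mRNA at 0.37 (FDR 8.57e-06) and footprints at 0.31 (FDR 0.0384) in RPLP0, both called. In RPLP1 they were at -0.18 (FDR 0.168) and -0.09 (FDR 0.342) in the authors' deposited table, and RPLP1 minus RPLP0 was -0.55 for mRNA (SE 0.11), a called difference. Inhbb, a subunit of activin, fell in mRNA in both, at -0.36 (FDR 0.000315) in RPLP0 and -0.33 (FDR 0.0198) in RPLP1 in the authors' deposited table. Footprints of Inhbb were not called in either stalk line. In RACK1 Inhbb stood at -0.34 (FDR 0.147) in mRNA and -0.53 (FDR 0.223) in footprints in the authors' deposited table, neither called. Its mRNA difference from RACK1 was -0.01 for RPLP0 and 0.01 for RPLP1, neither called. Tgfb1 fell in RPLP1, its mRNA at -0.69 (FDR 0.0058) and its footprints at -0.09 (FDR 0.694, not called) in the authors' deposited table.

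Genes for processing and storing TGF-beta family ligands fell in RPLP1, 4 of the 5 measured in mRNA and none higher, with a median of -0.34, where 8.59% of all genes fell. In footprints 1 of these 5 was called in RPLP1, Ltbp1 at -0.31 (FDR 0.0198) in the authors' deposited table. The 4 lower in mRNA included the proprotein convertases Furin (-0.35, FDR 0.0123) and Pcsk6 (-0.24, FDR 0.0437), which cleave the Nodal precursor, in the authors' deposited table. Also among them were the latency proteins Ltbp4 (-0.42, FDR 8.97e-05) and Ltbp1 (-0.34, FDR 0.0403) in the authors' deposited table. In RPLP0 none of the 5 was called, with a median of -0.03. RPLP1 minus RPLP0 mRNA was called for Ltbp4, at -0.56 (SE 0.10), and not for Furin, Pcsk6 or Ltbp1. In footprints that difference was called for Ltbp1 alone of the 4, at -0.46 (SE 0.13). In RACK1 none of the 6 measured was called, Pcsk6 mRNA being at -0.25 (FDR 0.427) in the authors' deposited table. RPLP1 minus RACK1 mRNA was called for Furin and Ltbp4 and not for Pcsk6 or Ltbp1. The type I receptor of Nodal, Acvr1b, fell in RPLP1 mRNA, at -0.27 (FDR 0.0266) in the authors' deposited table, and its footprints were not called. In RACK1 Acvr1b mRNA was at -0.40 (FDR 0.109) and its footprints at -0.39 (FDR 0.319) in the authors' deposited table, neither called. The mRNA difference of RPLP1 from RACK1 or from RPLP0 was not called for Acvr1b.

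Inside the cell, Smad6, the inhibitory SMAD of the BMP branch, fell in mRNA in both stalk lines, at -0.57 (FDR 0.0148) in RPLP0 and -0.74 (FDR 0.00435) in RPLP1 in the authors' deposited table. Foxh1, the DNA-binding partner of SMAD2 at Nodal targets, rose in footprints in RPLP0 by 0.39 (FDR 0.0353) and was at -0.25 (FDR 0.0618) in RPLP1 in the authors' deposited table. The footprint difference of RPLP1 from RPLP0 was -0.64 (SE 0.14) and was called. Rgma, a BMP co-receptor, fell in mRNA, at -0.73 (FDR 0.0483) in RPLP0 and -0.996 (FDR 0.0222) in RPLP1 in the authors' deposited table. Among BMP antagonists Twsg1 fell in RPLP1 mRNA, at -0.46 (FDR 0.0237) and Bambi, a decoy receptor, fell in RPLP1 footprints, at -0.36 (FDR 0.0212), in the authors' deposited table. Footprints of Smad6, Rgma and Twsg1 were not called in either stalk line. For Smad6 and Rgma the mRNA differences of the stalk lines from RACK1 were not called, Rgma mRNA in RACK1 being at -0.38. Pmepa1, which restrains SMAD2 and SMAD3, fell in RPLP1 mRNA, at -0.34 (FDR 0.0323), with footprints at 0.05 (FDR 0.869) in the authors' deposited table. In RACK1 Pmepa1 was at -0.29 (FDR 0.394) in mRNA and -0.31 (FDR 0.460) in footprints in the authors' deposited table, neither called. The mRNA difference of RPLP1 from RACK1 or from RPLP0 was not called for Pmepa1. The SMAD phosphatase gene Ppm1a rose in RPLP0 mRNA by 0.18 (FDR 0.0463) in the authors' deposited table. Rnf111, a ubiquitin ligase that acts on Skil, rose in RPLP1 footprints by 0.16 (FDR 0.0430) in the authors' deposited table. Of the other BMP ligands Bmp7, Bmp8a and Bmp8b were not called in mRNA in RPLP0 or RPLP1, nor was Bmp6 in RPLP1. Tcf3, an E protein bound by Id proteins, fell in RPLP1 mRNA, at -0.32 (FDR 0.00211) and Tcf12, another, rose there by 0.28 (FDR 0.0328) in the authors' deposited table. Dusp9, a phosphatase gene that BMP switches on in these cells, fell in RPLP0 mRNA, at -0.28 (FDR 0.00641) in the authors' deposited table. Footprints of Tcf3, Tcf12 and Dusp9 were not called in any line.

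**Figure D4:**
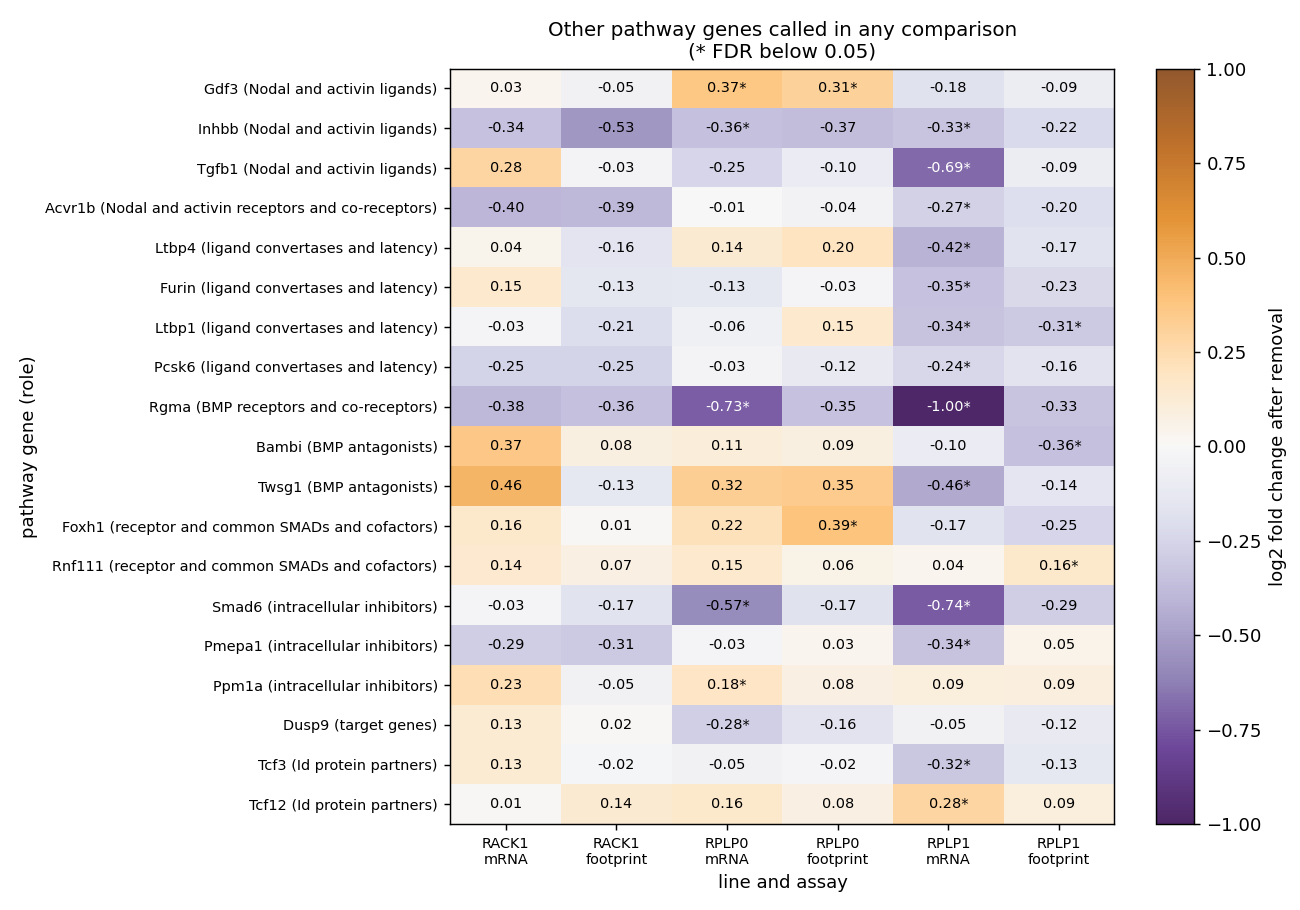
Log2 fold changes (colour and printed value) of the 19 other pathway genes called in any comparison, rows by gene and role, columns by line and assay, with an asterisk where the authors' FDR was below 0.05. Gdf3 has asterisks at 0.37 and 0.31 in RPLP0, and the 4 convertase and latency genes have theirs in RPLP1.

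Markers of pluripotent states moved beside the members in RPLP0. Of 3 measured primed epiblast markers 2 fell in mRNA, Dnmt3b at -0.37 (FDR 0.000131) and Pou3f1 at -0.51 (FDR 0.0163), and of 8 naive markers 3 fell, Tfcp2l1 at -0.42 (FDR 2.32e-07), Klf2 at -0.21 (FDR 0.00568) and Esrrb at -0.14 (FDR 0.0262), in the authors' deposited table. In RPLP1 1 of 8 naive markers fell, Klf2 at -0.37 (FDR 0.00132), 1 rose, Zfp42 by 0.24 (FDR 0.00209), and none of 4 primed markers was called in the authors' deposited table. In RACK1 1 of 8 naive markers rose, Klf2 by 0.82 (FDR 1.72e-06) in the authors' deposited table, beside no call among the members. These naive and primed marker calls were in mRNA, and no naive or primed marker was called in footprints in any line. Of the measured mesendoderm markers none of 2 was called in any line. Of 3 fibroblast feeder markers Col1a1 rose in RPLP0 mRNA, by 1.43 (FDR 0.0320), while Col1a2 was at -0.55 (FDR 0.648) and Thy1 at -0.27 (FDR 0.355), in the authors' deposited table. Thy1 fell in RPLP1 footprints, at -0.60 (FDR 0.0226), in the authors' deposited table. The neural marker Nes, 1 of 3 measured, rose in RPLP0 footprints by 0.49 (FDR 0.0105), and the trophectoderm marker Krt8, 1 of 3 measured, rose in RPLP1 mRNA by 0.34 (FDR 0.0424) in the authors' deposited table. No primitive endoderm marker was called in any line, of 5 measured in RACK1, 3 in RPLP0 and 4 in RPLP1. Of 4 2-cell-like markers 2 rose in RPLP0 mRNA, the close paralogs Zscan4c by 0.28 (FDR 0.000642) and Zscan4d by 0.26 (FDR 0.0105) in the authors' deposited table. Beside these counts, 4.9% of all genes were called lower and 5.05% higher in RPLP0 mRNA, and 1.42% higher in RPLP0 footprints. In RPLP1 8.59% were called lower and 5.64% higher in mRNA, and 4.85% lower in footprints. In RACK1 mRNA 0.17% were called higher. The part of these markers in the changes of Nodal and Lefty genes was not tested, and fewer cells of a kind and less mRNA per cell cannot be told apart in these samples.

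The genes most like Lefty1 and Lefty2 were found; Lefty1 was called most often, and Lefty2 tied with Nodal and had the larger sum of absolute changes. Likeness was measured by Euclidean distance over the 6 log2 changes, among 11855 genes present once in all 3 tables. Nearest to Lefty1 were Derl3 (distance 0.085), a membrane protein of endoplasmic reticulum protein degradation, Tgfbi (0.147), a secreted matrix protein, and Ngfr (0.217), a neurotrophin receptor. Lefty2 lay farther from Lefty1 (0.475) than these, and 56 genes that are not members were nearer, few among the 11855. It was still the member nearest to Lefty1, the next being Id3 (0.932). Among the genes nearest to Lefty2 were Acsl3 (0.179), a fatty acyl-CoA synthetase, and Nos3 (0.210), a nitric oxide synthase.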

How the data were processed

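The authors deposited 1 table per line, which per the file headers holds log2 fold changes after removal for mRNA and for footprints, the FDR of either (an adjusted p-value), and a class code per gene. The aligner, the test and the build were not given in the sources used here. Calls are the authors' FDR below 0.05, with no new test. P-values were recovered from FDRs by undoing the Benjamini-Hochberg step, taking the middle of the range that a run of equal FDRs allows, and the implied SE is the change divided by the normal quantile. This assumes that FDRs were adjusted over the genes of the table. Translation efficiency and differences between lines were tested across all genes from these SEs, and the tests were run on simulated data (Python 3.11.15, scipy 1.17.1). Differences between lines were simulated for mRNA only, so the rates given below do not cover footprint differences. The simulated errors were normal and independent, so those runs cannot check these assumptions. Between 36% and 68% of simulated log2 changes of -0.6 were recovered, and at most 6.06% of calls were false. Many changes of that size can therefore be missed. Intervals cover these implied errors only. With 3 mRNA samples a group these normal tests are approximate, and read depth is unknown, so precision rests on the implied SE alone. Other FDR limits, a minimum change, centring, t quantiles, the more precise genes alone and an error correlation between assays were also tried.

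The members and lists were chosen with earlier results of these data known. Other pathway genes are named by role where called in any line, at most 4 per role in order of FDR; the rule also covers the 3 nearest genes for the 2 most often called members. Markers are named for their calls, after their values were seen. Of the genes this rule names, 1 is not reported here.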

Additional observations from a re-analysis of the deposited data

Results flagged for a closer look

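Responses that differed between lines by the approximate test with Benjamini-Hochberg adjustment over all shared genes were as follows. For RPLP0 minus RACK1 they were Lefty1 mRNA (-0.49) and Lefty2 mRNA (-0.55). For RPLP1 minus RACK1 they were Lefty1 mRNA (-0.74) and Lefty2 mRNA (-0.48). For RPLP1 minus RPLP0 they were Nodal mRNA (-0.50), Tdgf1 mRNA (-0.27), Skil mRNA (0.27) and Nodal footprints (-0.35). With values per line and no values per sample, the number of samples that show each direction is not known here.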

How the results depend on the processing

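Across the other settings 47 of 57 counts of members called stayed within 1.5 times their value. Of these settings 1 was chosen after seeing the data, the largest p that a run of equal FDRs allows. Many of the 47 were 0 before and after, and the fall from 3 to 2 in RPLP0 mRNA at an FDR of 0.01 is among them. For calls by the authors' FDR, centring only recounted calls that kept their sign. The tally is therefore a weak measure of stability. At an FDR of 0.1 the count rose in RPLP0 mRNA from 3 to 5, adding Smad7 and Skil, and in RPLP1 footprints from 1 to 3, adding Nodal and Lefty2. At 0.01 the RPLP0 footprint count went from 2 to 0, and with an absolute log2 change of at least 0.3 from 2 to 1, leaving Lefty1. Nodal was no longer called in either line at 0.01, while Lefty1 and Lefty2 mRNA remained in both. With an error correlation of 0.5 between assays 1 member, Tdgf1, was called for translation efficiency in RPLP1, and over all genes 420, 245 and 474 were called in RACK1, RPLP0 and RPLP1 against 15, 1 and 4. With t quantiles these were 4, 2 and 0. With t quantiles the counts between lines were 2 for RPLP0 minus RACK1 footprints (Skil and Id2), 1 for RPLP1 minus RACK1 footprints (Id2), 5 for RPLP1 minus RPLP0 mRNA (Lefty1 and Lefty2 added) and 3 for its footprints (Skil and Lefty2 added). Over all genes the same 4 counts went from 77 to 346, 13 to 22, 1462 to 2108 and 565 to 1150. Centring on the median of all genes gave 1 for RPLP1 minus RACK1 footprints (Id2), with 16 against 13 over all genes. With t quantiles each implied SE was the change divided by a t quantile with 4 degrees of freedom, and differences between lines were tested with 8. That quantile exceeds the normal one for the same p, so the SEs shrink, most for genes with the smallest p-values. Lefty2 mRNA, added for RPLP1 minus RPLP0 in this way, differed by only 0.06 with a main SE of 0.13. The cause of the shifts was not tested further. No paired analysis was possible because the tables hold no values per sample, and for the same reason no replicate could be left out.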
